A study of Mus musculus with 2 samples.

Results

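The genes described here encode the proteins that copy DNA at the replication fork, from the complex that marks origins to the enzymes that supply deoxynucleotides. They were taken as a list of 50 symbols, matched to the gene identifiers of the files through GENCODE M21, and all 50 were found among 43346 annotated genes, of which 21461 were nuclear protein-coding genes. The rule for the list is membership by name and uses no threshold on a measured value. By role they are 6 genes of the origin recognition complex, 3 of origin licensing and its inhibitor, 6 of the MCM helicase, 8 of helicase activation, 8 of polymerases and primase, 6 of the sliding clamp and its loader, 3 of single-strand binding, 2 of flap cutting and ligation, 5 of nucleotide supply, and 3 of chromatin assembly and histone mRNA.

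The cells were granulocyte-monocyte progenitors, bone marrow precursors of neutrophils and monocytes, and their total RNA was sequenced. The series held 1 group of 2 libraries, called replicate 1 and replicate 2, both of primary cells from C57BL/6J males at 5 to 6 weeks of age, with no other allele, agent or time point named. Each library was made with a ScriptSeq kit from 100 ng of RNA after removal of ribosomal RNA, with a size range of 200 to 712 for replicate 1 and 200 to 1000 for replicate 2, in no stated unit. The labels call the libraries biological replicates and give both the same donor record, so the SD of each mean (n = 2 throughout) may be partly technical. Gene tables held 49473841 expected counts in replicate 1 and 44260902 in replicate 2, and no p-value is given because no condition was compared. All 8 markers of the progenitor gate were at or above 1 TPM in both libraries, led by the granule gene Mpo at 2552 and 2288 TPM, and Ly6a, which encodes the stem cell antigen excluded by the gate, was at 0. Summed markers were at or below 0.02 TPM for B cells, 0.20 for T and NK cells, 0.29 for erythroid cells, 0.93 for megakaryocytes and 0.89 for stromal and endothelial cells. Of the dendritic markers, Flt3 was at 0.92 and 1.72 TPM, Cd74 at 0.43 and 1.28, and Siglech at 0. All 3 mature neutrophil markers were at or above 1 TPM, with sums of 11.2 TPM in replicate 1 and 15.7 in replicate 2, and their part in the levels below was not tested.

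Before S phase, the origin recognition complex, Cdc6 and Cdt1 load rings of the MCM helicase onto origins, and geminin then blocks Cdt1 so that no origin is licensed again. Kinases and the factors Cdc45 and GINS turn the loaded ring into a moving helicase, behind which primase, the polymerases, the clamp and the ligase build both strands. Transcription factors of the E2F family are known to switch on many of these genes as cells commit to divide, and granulocyte-monocyte progenitors are known as a dividing population.

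The promoters of these genes are shown because motifs of the E2F family are a sequence feature that replication genes are known for. RefSeq promoters on GRCm38.p6 (mm10), each 300 bases long with 250 before the start and 50 from it, were matched by symbol for 42 of the 50 genes, all but Gins1, Gins2, Gins4, Gmnn, Mcm4, Pole, Prim2 and Rfc2. Each was searched on both strands for the 8-mers TTTCCCGC or TTTGGCGC or TTTCGCGC or TTTGCCGC, and overlapping matches were each counted. The windows below hold 30 bases each on the strand of the gene. Capitals mark the 8-mer, which reads as the reverse complement where the match lies on the other strand.
Mcm3: aaacttccgtgGCGGGAAAacttgggaagt
Mcm5: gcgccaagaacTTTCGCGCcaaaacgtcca
Mcm6: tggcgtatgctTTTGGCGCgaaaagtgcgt
Mcm7: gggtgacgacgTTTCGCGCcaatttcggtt
Orc1: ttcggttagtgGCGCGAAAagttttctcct
Cdc6: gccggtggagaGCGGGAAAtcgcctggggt
Pola1: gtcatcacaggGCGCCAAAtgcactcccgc
Rfc3: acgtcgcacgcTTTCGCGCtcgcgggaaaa

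Counting the start as position 1, the 8-mer began at position 20 in Mcm3 (chr1:20820275-20820304, minus strand), at position -153 in Mcm5 (chr8:75109345-75109374, plus strand), at position -110 in Mcm6 (chr1:128359797-128359826, minus strand) and at position 17 in Mcm7 (chr5:138171849-138171878, minus strand). It began at position -27 in Orc1 (chr4:108579416-108579445, plus strand), -138 in Cdc6 (chr11:98908002-98908031, plus strand), -138 in Pola1 (chrX:93632275-93632304, minus strand) and -10 in Rfc3 (chr5:151651200-151651229, minus strand). The windows that begin after the start lie in transcribed sequence and the others before it or across it. In Mcm5 and Mcm6 a match on the opposite strand overlapped the one shown, and Rfc3 held another match at position 1. Further matches began at position 39 in Mcm3, -47 in Mcm6 and -165 in Mcm7.

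At least 1 such 8-mer was present in the promoters of 14 of the 42 genes, or 33.3%, against 3.29% of 17492 protein-coding genes with a RefSeq promoter and 6.60% of the 2438 that reached 10 TPM in both libraries. There were 20 matches in all, of which 5 lay within the 100 bases before the start and 8 after it, and 5 genes held at least 2. By role, matches were present in 4 of 5 MCM genes, in both licensing genes with a promoter, in 3 of 6 polymerase genes and 2 of 6 origin recognition genes, and in none of the 5 nucleotide supply, 3 single-strand binding or 3 chromatin genes. The 5-mer CCAAT, the core of the motif bound by the factor NF-Y, was present in 25 of the 42 genes, or 59.5%, against 42.3% of all promoter-matched genes. All 5 MCM genes and all 3 single-strand binding genes held it. Members' promoters had a median GC content of 62.3%, against 56.3% over all promoters and 61.0% over those of genes at 10 TPM or more. A match describes letters in this window only. The median level was 16.0 TPM in replicate 1 and 17.0 in replicate 2 for the 14 genes with an 8-mer, and 18.9 and 22.3 for the 28 without, so the median was lower in the genes with the 8-mer, with wide overlap.

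**Figure D1:**
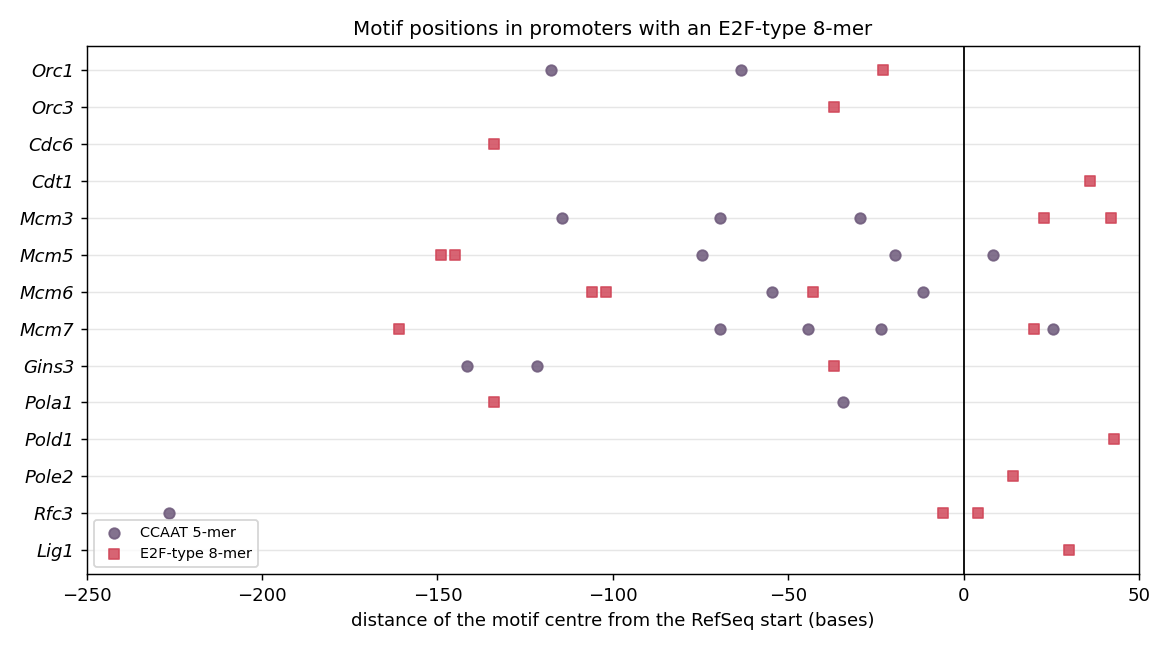
Positions of motif matches in the 14 promoters that held an E2F-type 8-mer, with distance from the RefSeq start in bases on the horizontal axis and 1 gene per row; squares are 8-mers and circles are CCAAT. The 4 MCM genes shown each hold at least 2 squares, and 8 of the 20 squares lie after the start.

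Every one of the 50 genes was at or above 1 TPM in both libraries, a level reached by 40.8% of nuclear protein-coding genes. TPM is the deposited level per transcript length, scaled to the total of the library, and in bulk RNA fewer cells of a type and less RNA per cell cannot be told apart. At 10 TPM or more in both libraries there were 40 of the 50, against 14.3% of nuclear protein-coding genes. The median over the 50 was 18.4 TPM in replicate 1 and 21.6 in replicate 2. Nuclear protein-coding genes that reached 1 TPM had medians of 6.47 and 7.74, and all such genes 0.170 and 0.200. On the log2(TPM + 1) scale the median of the list was 4.39 ± 0.15 (SD), beside 3.01 ± 0.16 for genes that reached 1 TPM. Together the 50 genes summed to 1334 TPM in replicate 1 and 1595 in replicate 2, which was 0.700% and 0.698% of the TPM of nuclear protein-coding genes. The higher deposited TPM of most genes in replicate 2 came with a higher sum over nuclear protein-coding genes there, 228404 TPM against 190664.

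**Figure D2:**
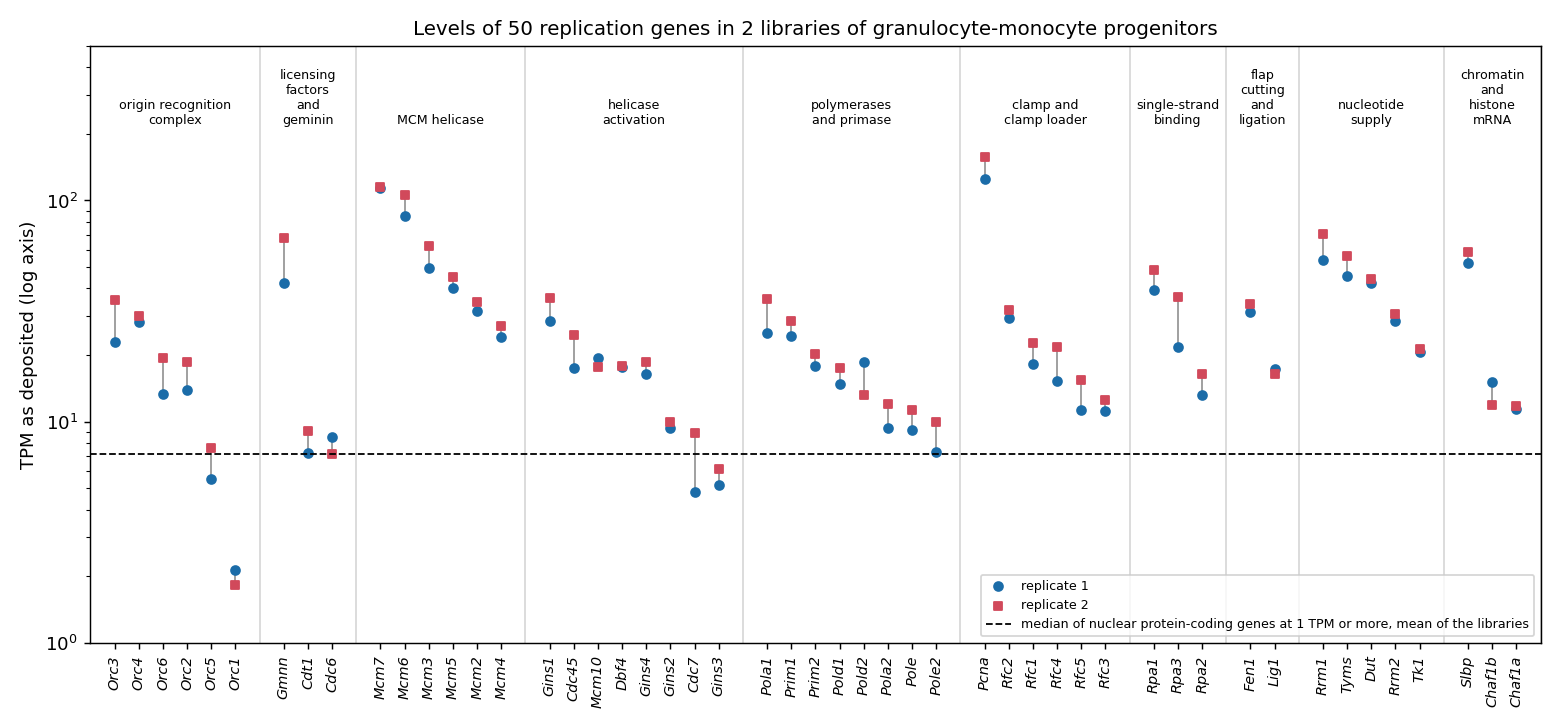
Deposited TPM (log axis) of each of the 50 genes in replicate 1 (circles) and replicate 2 (squares), grouped by role; the dashed line is the median of nuclear protein-coding genes at 1 TPM or more, averaged over the libraries. Pcna and Mcm7 stand above 100 TPM in both libraries and Orc1 lies lowest, at 2.13 and 1.83 TPM.

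The origin recognition complex is the ATP-dependent ring that marks where replication can begin. Its subunits spanned the widest range of the 6 complexes examined on gene TPM. Without transcripts classed as noncoding, GINS was wider in replicate 2 and in the mean of the libraries, but not in replicate 1. Orc1, which opens the complex to Cdc6 and whose protein is known to be removed and remade within each cell cycle in mammals, was the lowest of all 50 genes at 2.13 TPM in replicate 1 and 1.83 in replicate 2. The deposited credibility interval of Orc1 ran from 1.85 to 3.29 TPM in replicate 1 and from 1.76 to 4.25 in replicate 2. This was the widest interval of the list relative to its level, and the intervals of the libraries overlapped. Orc2, a core subunit, was at 13.9 and 18.7 TPM. Orc3, its partner in the core, was at 23.0 and 35.5. Orc4, an ATPase-fold subunit, was at 28.1 and 30.2, close to Orc3 and above the rest. Orc5, another subunit of that fold, was at 5.51 and 7.57 TPM. Orc6, the smallest and least tightly bound subunit, was at 13.4 and 19.4, so that Orc2 and Orc6 lay within each other's spread. The highest subunit exceeded the lowest by 13.2-fold in replicate 1 and 19.4-fold in replicate 2. Orc4 owed most of its TPM to transcripts that the annotation classes as noncoding, and without these it was at 5.69 and 10.2 TPM, below Orc2, Orc3 and Orc6.

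The licensing factors were among the lowest genes and their inhibitor among the higher ones. Cdc6, the ATPase that joins the origin complex to load MCM, was at 8.55 TPM in replicate 1 and 7.13 in replicate 2. Cdt1, which brings the MCM ring to the origin, was at 7.18 and 9.09 TPM. Neither reached 10 TPM in either library. Gmnn, which encodes the Cdt1 inhibitor geminin, was at 42.1 and 67.4 TPM. The Gmnn level exceeded that of Cdt1 by 2.40 in replicate 1 and 2.76 in replicate 2 on the log2(TPM + 1) scale, a mean of 2.58 ± 0.26 (SD).

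All 6 genes of the MCM2-7 ring, the motor of the replicative helicase, were above 20 TPM in both libraries. Mcm7 was at 114 TPM in replicate 1 and 115 in replicate 2, ranks 235 and 293 among nuclear protein-coding genes. Mcm6 followed at 84.7 and 106 TPM. Mcm3 was at 49.3 and 62.2. These are paralogues that sit at fixed places in the same ring, so that 1 copy of each is needed per helicase. Mcm5, next to Mcm2 at the gate through which DNA enters, was at 40.0 and 45.3 TPM. Mcm2 was at 31.5 and 34.7, and Mcm4, a target of the Cdc7 kinase together with Mcm2, was lowest at 24.04 and 26.97. On gene TPM the order from Mcm7 down to Mcm4 was the same in both libraries, and the highest exceeded the lowest by 4.74-fold and 4.27-fold. In Mcm7 a short protein-coding model of 795 nt held 37.1% and 33.6% of the TPM, beside 45.1% and 47.9% for the full-length transcript of 2962 nt. Without noncoding transcripts Mcm7 was at 96.6 and 98.7 TPM and Mcm6 at 82.5 and 103, so that Mcm6 came above Mcm7 in replicate 2. These values keep the short model. The full-length Mcm7 transcript alone was at 51.4 and 55.2 TPM, below the leading Mcm6 transcript at 78.4 and 98.3.

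Genes that turn the loaded ring into a moving helicase had lower medians than the ring, at 16.9 TPM in replicate 1 and 17.8 in replicate 2 against 44.7 and 53.7. Cdc45, which binds the ring at firing, was at 17.5 TPM in replicate 1 and 24.6 in replicate 2. Of the GINS complex, which closes the active helicase, Gins1 was highest at 28.4 and 36.1 TPM, above Mcm4 in both libraries and above Mcm2 in replicate 2. Without noncoding transcripts Gins1 was at 23.3 and 35.2 TPM, below Mcm4 in replicate 1. Gins4 was at 16.4 and 18.6. The other subunits were below 10 TPM in both libraries, although GINS is known to hold 1 copy of each. Gins2 was at 9.34 and 9.94 TPM, and Gins3 at 5.18 and 6.10. Gins2 was at 2.30 and 2.47 TPM without noncoding transcripts, which put it below Gins3. Mcm10, a factor that acts as the helicase starts to move, was at 19.3 and 17.6 TPM. Dbf4, the regulatory subunit of the kinase that phosphorylates MCM, was at 17.7 and 17.9 TPM. Cdc7, the catalytic subunit of that kinase, was at 4.79 and 8.92, the largest relative difference between the libraries in the list on deposited TPM and CPM. On TPM rescaled to nuclear protein-coding genes, Pold2 differed more, with a log2 ratio of -0.76 against 0.64 for Cdc7. The excess of Dbf4 over Cdc7 was therefore 1.69 in replicate 1 and 0.93 in replicate 2 on the log2(TPM + 1) scale, a mean of 1.31 ± 0.54 (SD).

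Polymerase and primase genes had medians of 16.3 TPM in replicate 1 and 15.3 in replicate 2, below the 18.4 and 21.6 of the whole list. In the polymerase alpha-primase complex, which starts each new strand, the catalytic subunit Pola1 was at 25.2 TPM in replicate 1 and 35.7 in replicate 2. Prim1, the catalytic primase, was at 24.4 and 28.5. Prim2, its regulatory partner, was at 17.8 and 20.3, and the second polymerase subunit Pola2 was at 9.32 and 12.1. The order of the 4 subunits was the same in both libraries. Pold1, the catalytic subunit of polymerase delta, which is known for lagging-strand synthesis, was at 14.8 and 17.5 TPM. Its accessory subunit Pold2 was at 18.5 and 13.1, in the opposite direction. Nearly all of that difference in deposited TPM lay in Pold2-202, a noncoding transcript of 342 nt, and the coding transcript was at 13.4 and 13.1 TPM. In expected counts, the coding transcript held 2834 in replicate 1 and 2104 in replicate 2, beside 123 and 0 for Pold2-202. The lower count of Pold2 in replicate 2 thus lay mostly in the coding transcript. Pole, the catalytic subunit of the leading-strand polymerase epsilon, was at 9.12 and 11.3 TPM, and its partner Pole2 at 7.30 and 9.94.

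Pcna, the ring-shaped clamp that holds polymerases on DNA, was the highest gene of the list at 125 TPM in replicate 1 and 158 in replicate 2, ranks 219 and 221 among nuclear protein-coding genes. The 5 subunits of replication factor C, which loads the clamp, were much lower. Rfc1, the large subunit, was at 18.2 and 22.7 TPM. Rfc2 was the highest small subunit at 29.5 and 31.8. Rfc4 was at 15.3 and 21.8 TPM. These are ATPases of 1 family, and the remaining pair was close together. Rfc5 was at 11.3 and 15.4 TPM, and Rfc3 at 11.1 and 12.5. The order of the loader subunits was the same in both libraries, although Rfc3 and Rfc5 differed in replicate 1 by less than the difference of either between libraries. Among the subunits of RPA, the trimer that coats single-stranded DNA, Rpa1, the large DNA-binding subunit, was at 39.3 and 48.7 TPM. Rpa3, the smallest, was at 21.8 and 36.7, and Rpa2, the subunit phosphorylated during S phase and after damage, at 13.1 and 16.5. The top subunit exceeded the bottom one by 2.99-fold and 2.96-fold. A retained-intron transcript of 716 nt held 36.4% and 35.6% of the TPM of Rpa1, and without noncoding transcripts Rpa1 was at 25.0 and 27.8 TPM, below Rpa3 in replicate 2.

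Of the genes that finish Okazaki fragments, Fen1, the nuclease that cuts flaps, was at 31.4 TPM in replicate 1 and 34.1 in replicate 2. Lig1, the ligase that seals the nick, was at 17.3 and 16.4. Fen1 exceeded Lig1 in both libraries, by a mean difference of Lig1 minus Fen1 of -0.92 ± 0.13 (SD) on the log2(TPM + 1) scale.

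On gene TPM, nucleotide supply genes were, with MCM, the highest role group. Rrm1, the large subunit of ribonucleotide reductase, was at 53.7 TPM in replicate 1 and 70.6 in replicate 2. Rrm2, its S-phase small subunit, was at 28.4 and 30.7. The excess of Rrm1 over Rrm2 was 1.04 ± 0.20 (SD) on the log2(TPM + 1) scale. Dut, which removes dUTP and so provides the substrate of thymidylate synthase, was at 42.2 and 44.2 TPM. Tk1, the cytosolic thymidine kinase, was at 20.7 and 21.4. Tyms, the thymidylate synthase gene, was at 45.3 and 56.1, but little of that was assigned to its coding transcript, as described below with the transcripts. The paralogues known to serve outside S phase were far lower. Rrm2b was at 2.48 and 3.05 TPM, and the mitochondrial kinase gene Tk2 at 1.44 and 2.01. On the log2(TPM + 1) scale, Rrm2 exceeded Rrm2b by 3.02 ± 0.08 (SD) and Tk1 exceeded Tk2 by 3.02 ± 0.18.

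The chromatin genes of the list were split. Slbp, which binds the stem-loop of replication-dependent histone mRNAs, was at 51.9 TPM in replicate 1 and 58.7 in replicate 2. Chaf1a, the large subunit of the histone chaperone CAF-1 that follows the fork, was at 11.4 and 11.8. Chaf1b, the middle subunit, was at 15.2 and 11.9. Chaf1a minus Chaf1b was -0.39 in replicate 1 and -0.01 in replicate 2 on the log2(TPM + 1) scale, a mean of -0.20 ± 0.26 (SD), so the subunits did not differ beyond the spread between libraries.

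Differences between role groups were taken within each library as differences of median log2(TPM + 1). MCM genes exceeded origin recognition genes by 1.63 in replicate 1 and 1.43 in replicate 2, a mean of 1.53 ± 0.14 (SD). They exceeded Cdc45 and GINS by 1.39 and 1.46, a mean of 1.43 ± 0.05. The ring was thus above both the complex that loads it and the factors that activate it, in both libraries. Polymerase alpha-primase genes exceeded those of polymerases delta and epsilon by 0.79 and 0.93, a mean of 0.86 ± 0.09. RPA exceeded the clamp loader by 0.49 and 0.73, a mean of 0.61 ± 0.17. Nucleotide supply genes exceeded the other members by 1.21 and 1.15, a mean of 1.18 ± 0.04. This excess counts Tyms at its gene TPM, of which 0.82 and 3.09 TPM lay in the coding transcript. With Tyms at that level, the median gene of the group would be Rrm2, at 28.4 and 30.7 TPM. At gene TPM it was Dut, at 42.2 and 44.2. Each difference was larger than its SD and had the same sign in both libraries, but the groups overlapped gene by gene on gene TPM. Mcm4 lay below Orc4 in replicate 1, below Orc3 and Orc4 in replicate 2, and below Gins1 in both. Without transcripts classed as noncoding, Mcm4 lay above every origin recognition gene in both libraries. It was then below Gins1 in replicate 2 only. Within complexes, the distance from the lowest to the highest subunit was 3.45 ± 0.33 for origin recognition, 2.13 ± 0.10 for MCM and 2.32 ± 0.09 for GINS. Without transcripts classed as noncoding it was 3.05 for origin recognition and 3.13 for GINS, although origin recognition was the wider of them in replicate 1. On gene TPM it was 1.42 ± 0.10 for polymerase alpha-primase, 1.31 ± 0.04 for the clamp loader and 1.51 for RPA.

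**Figure D3:**
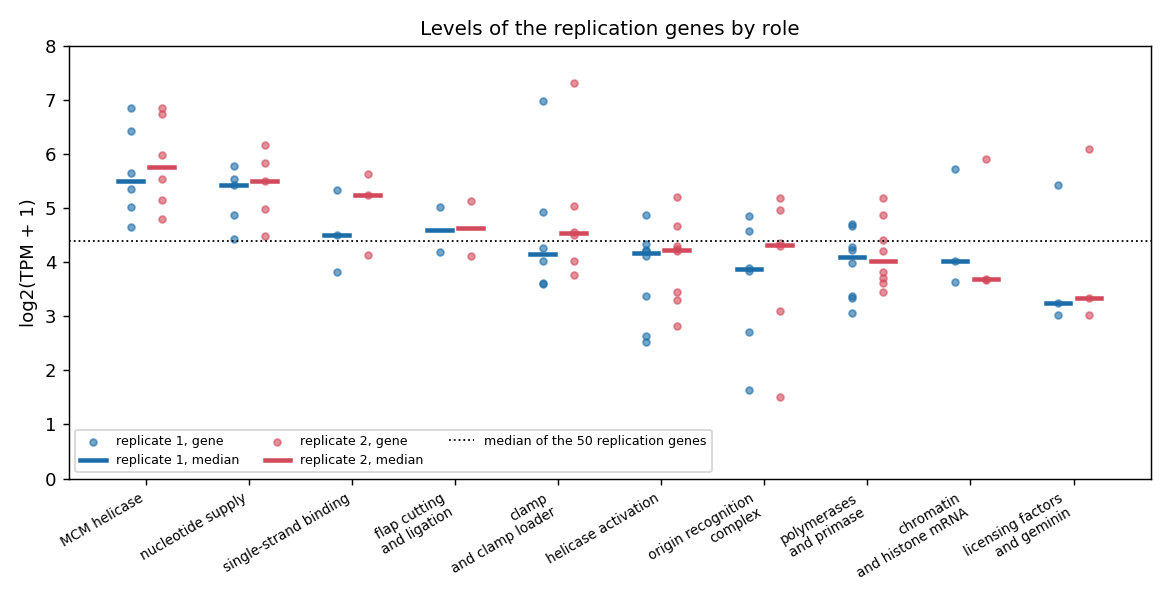
Levels as log2(TPM + 1) of each gene (points) by role in replicate 1 (left of each pair) and replicate 2 (right), with the median of each role as a bar and the median of the 50 genes, 4.39, as a dotted line. The bars of the MCM and nucleotide supply genes lie highest and that of the licensing factors lowest.

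A list of 43 other replication genes was measured beside the members. All 43 were at or above 1 TPM in both libraries and 25 at or above 10 TPM. Their median was 11.5 TPM in replicate 1 and 14.1 in replicate 2, below the 18.4 and 21.6 of the members. The highest was Top2a, the topoisomerase that untangles sister DNA, at 133 and 160 TPM, close to Pcna. Pclaf, a PCNA-binding factor, was at 46.2 and 70.5, and Tipin, of the fork protection complex, at 48.8 and 61.9. Dtymk, the kinase after Tyms and Tk1 in dTTP synthesis, was at 42.5 and 56.2, and Topbp1, an activator of origin firing and checkpoint signalling, at 41.1 and 53.7. The lowest were the MCM paralogue Mcm9 at 1.05 and 2.04 TPM, Tk2, the helicase gene Recql4 at 1.64 and 2.43, Rrm2b, and Ticrr, which helps load Cdc45, at 2.57 and 2.98. Mcm8, the partner of Mcm9 in DNA repair, was at 3.93 and 4.00. Both MCM paralogues therefore lay below every ring gene in both libraries.

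Differences between the libraries were examined on TMM-scaled CPM, counts relative to the library total, since deposited TPM also carries the shift in total. All 50 genes had a mean of at least 10 CPM. Their log2 ratios of replicate 2 to replicate 1 ran from -0.54 in Chaf1b to 0.63 in Cdc7, with a median of -0.03. The median size of the ratio was 0.13, beside 0.18 over the 8192 nuclear protein-coding genes with at least 10 CPM. The typical member thus differed less between libraries than the typical gene above that floor, though these genes were not matched for level. With the trend on GC content, described below, removed, the median sizes were 0.12 for members and 0.16 over 8143 genes. Cdc7 alone was higher in replicate 2 by over 1.5-fold, or 1 of 50, against 2.55% of the 8192 genes. None was lower by over 1.5-fold, against 3.49%. The other members furthest up were Rpa3 at 0.39 and Gmnn at 0.36, and those furthest down were Cdc6 at -0.42, Pold2 at -0.37, Lig1 at -0.31 and Dut at -0.30. Levels of the 50 genes in the libraries were correlated across genes, with r = 0.975 and rho = 0.960 (n = 50 genes of the same libraries, which are not independent).

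The ratios moved with GC content, the share of G and C in the leading transcript of a gene. Across the 50 genes r was -0.54 and rho -0.58 (n = 50, a description of these libraries). Over all genes, the median log2 ratio went from 0.16 in the lowest of 5 equal bins by GC content to -0.17 in the highest, and that of the members from 0.20 over 5 genes to -0.13 over 7. All 6 origin recognition genes, with a median GC content of 43.8%, were higher in replicate 2, at a median of 0.19. Both flap and ligation genes, at 53.8%, and all 3 chromatin genes, at 53.6%, were lower. With the trend on GC content removed, member ratios ran from -0.44 to 0.54, none passed 1.5-fold, and Orc1 and Orc4 turned to -0.03 and -0.16, so that not all 6 origin recognition genes were higher in replicate 2. The mean fragment length also differed, at 178 nt in replicate 1 and 214 nt in replicate 2, and its part in these ratios was not tested.

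**Figure D4:**
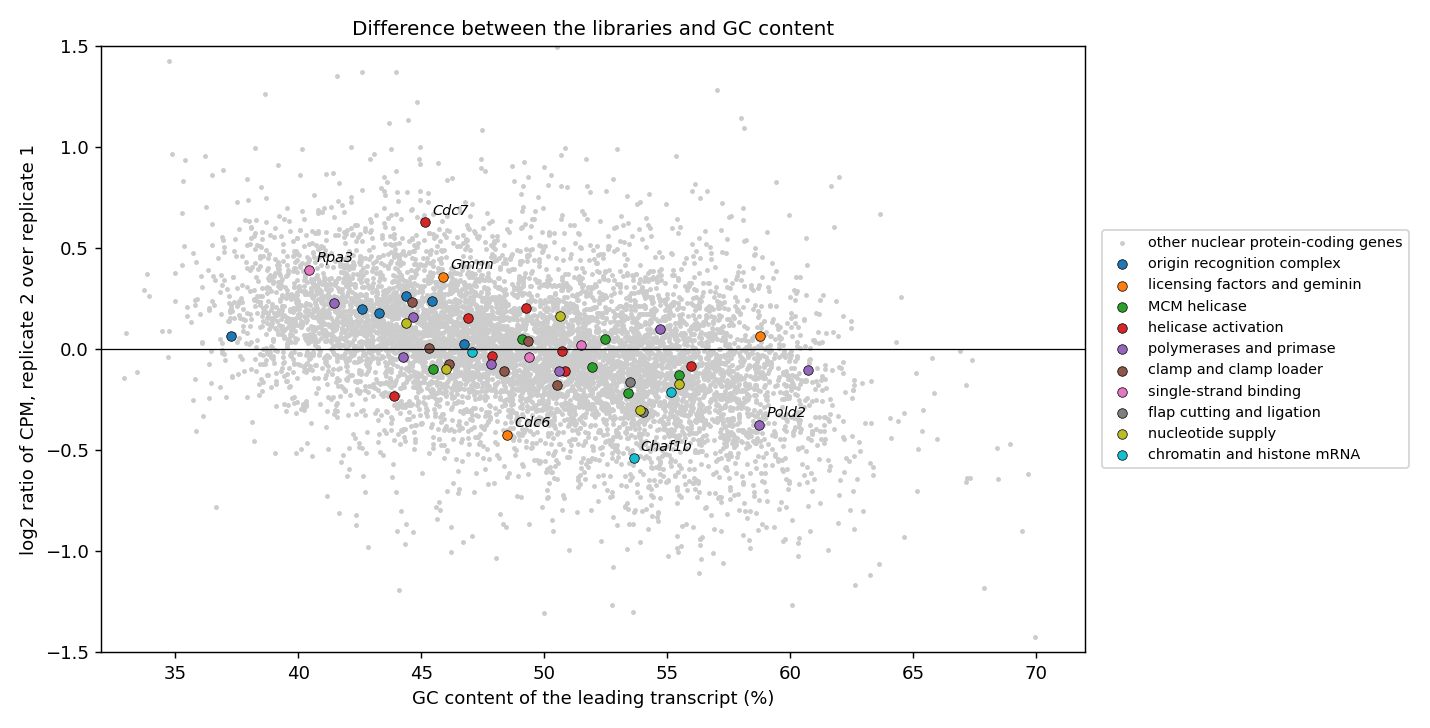
Log2 ratio of CPM in replicate 2 over replicate 1 against GC content (percent) of the leading transcript, with the 50 members in colour by role and other nuclear protein-coding genes in grey; 4 genes, none of them a member, lie outside the axes. Grey and coloured points both fall from left to right, and Cdc7 at 0.63 and Chaf1b at -0.54 are the members furthest from 0.

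The files also divide each gene among 250 transcripts of the members, of which 11 had no match in GENCODE M21 and 15 had another length there. In 48 of the 50 genes the same transcript led in both libraries, the exceptions being Dbf4 and Fen1, and in 20 it held at least 90% of the TPM in both. Both counts include the 10 genes with only 1 transcript, for which these outcomes were fixed. Protein-coding transcripts held a median of 95.3% of a member's TPM in replicate 1 and 95.5% in replicate 2. The share was under 80% in both libraries for Orc3, Orc4, Mcm10, Gins2, Pold1, Pole, Rfc1, Rpa1, Lig1 and Tyms. For Pold1, 26.7% and 31.4% of the TPM lay in transcripts of unsettled class. Over transcripts of unchanged length, its coding share was 66.7% and 86.6%. Of members at or above 10 TPM, 8 of 40 had a share under 80% in both libraries, close to the 22.4% of 3066 protein-coding genes at that level. In 47 of the 50 genes the leading transcript was classed as protein-coding, and the exceptions were Orc4, Gins2 and Tyms. In 7 genes the leading transcript had another length in M21, so its class in the files' own annotation is not settled. These were Tyms and, counted here as wholly protein-coding, Orc6, Mcm5, Gins3, Gins4, Rfc2 and Chaf1a.

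In Orc4, a processed transcript of 424 nt (Orc4-206) accounted for 57.4% of the gene's TPM in replicate 1 and 44.9% in replicate 2. Coding transcripts held 20.2% and 33.9% of the TPM but 66.2% and 64.1% of the counts of Orc4. TPM divides counts by length, so 573 and 321 counts on this short model weighed more than 2289 and 1968 on the coding transcript of 4066 nt. In Gins2, a retained-intron transcript of 511 nt (Gins2-204) held 59.5% and 46.9%, and coding transcripts held 24.7% and 24.8% of the TPM beside 78.8% and 74.5% of the counts. In Tyms, the transcript Tyms-205 of 797 nt held 72.6% and 72.8%. GENCODE M21 gives that identifier a length of 618 nt and the class nonsense-mediated decay, so its class in the files' own annotation is not settled. The full-length coding transcript of Tyms, of 3163 nt, held 1.80% and 5.51%, or 0.82 and 3.09 TPM. Rfc1 is a different case, since its low coding share rested on transcripts with no match, 1 of which, of 4751 nt, held 35.5% and 39.1%.

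Some transcript shares differed widely between the libraries. Cdc7-203, a coding transcript, held 48.6% of Cdc7 TPM in replicate 1 and 0 in replicate 2. Mcm10-206, a processed transcript of 690 nt, held 28.2% and 2.09% of Mcm10. Orc1-203 held 30.5% of Orc1 in replicate 1 and 0 in replicate 2. These are the estimator's divisions of shared reads among overlapping models, and no SD can be set on them beyond the pair of values. Fen1-203 led Fen1 in replicate 1 with 54.6%, against 25.4% in replicate 2, where Fen1-202 led with 47.4%. Both are coding transcripts of similar length, of 2152 and 2100 nt, and the gene level of Fen1 was 31.4 and 34.1 TPM.

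**Figure D5:**
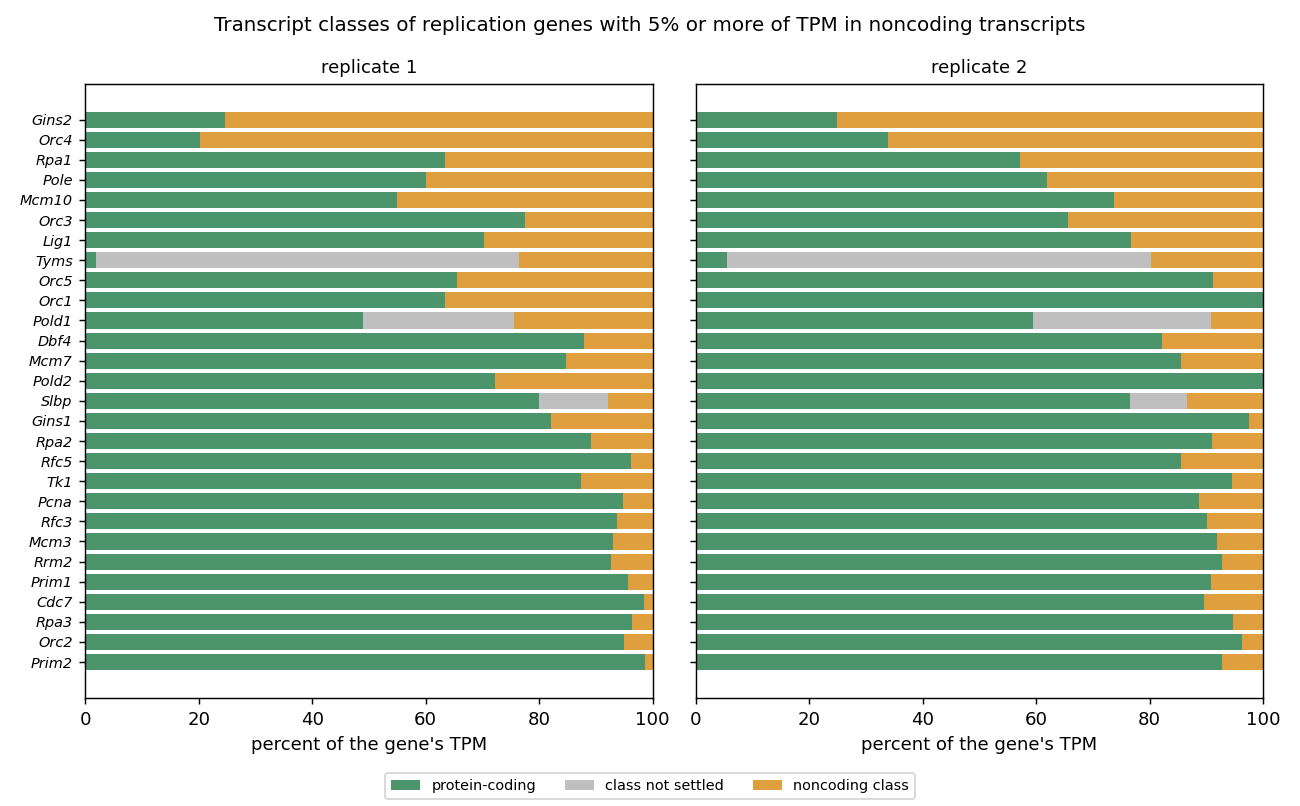
Percent of each gene's TPM in protein-coding transcripts, in noncoding classes and in transcripts whose class is not settled, in replicate 1 (left) and replicate 2 (right), for the 28 members with at least 5% in noncoding classes in a library. Among the members shown, Gins2 and Orc4 have the largest noncoding parts in both libraries, and Tyms the largest part that is not settled.

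Reads shared with other genes weighed little by the deposited estimates. The posterior SD of the count was above 0 in 6 members, namely Orc5, Cdc6, Mcm6, Pcna, Rfc5 and Tk1, and was largest in Pcna at 0.126% and 0.106% of the count. The width of the deposited credibility interval was a median 6.99% of TPM in replicate 1 and 7.20% in replicate 2. Exons of some members overlap those of genes on the opposite strand, and strand use in counting was not given in the sources used here. Gins2 shared 2758 of 4097 exon bases with Gse1, which was at 1.65 and 2.03 TPM, and Chaf1a shared 4648 of 8854 with Ubxn6, at 5.11 and 6.28. Rfc4 shared 194 of 1533 bases with the translation factor gene Eif4a2, at 133 and 194 TPM. Fen1 shared 1909 of 2422 bases with the antisense gene Gm10143, at 0.18 and 0.55, and Orc2 shared 1150 of 3857 with Nif3l1, at 9.35 and 8.71. Fen1 also shared 130 bases with Tmem258, at 48.5 and 45.2 TPM, above Fen1 itself in both libraries. Orc6 shared 171 of 2469 bases with Vps35, at 23.0 and 37.0, and Rfc2 shared 952 of 6303 with Lat2, at 6.56 and 8.45. The levels of these members are uncertain to the extent that reads of the overlapping genes were counted for them.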

How the data were processed

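Total RNA of 1 group was measured in 2 libraries. The authors' deposited tables give, per the file headers, expected counts and posterior mean counts per gene and transcript, TPM and FPKM scaled by the authors, each transcript's percent of its gene, and bounds of a credibility interval of TPM, a signal that is never negative. Metadata deposited with the tables name mm10 and GENCODE M4, and alignment and quantification tools were not given in the sources used here. Symbols, transcript classes and coordinates came from GENCODE M21 by identifier without version, with lengths called equal within 1%. Levels without noncoding transcripts left out only transcripts that had a noncoding class and an unchanged length. Those of changed length or without a match, such as Tyms-205 and Pold1-203, were kept. Medians of log2(TPM + 1) were taken over each list, and log values understate differences of low genes. Rescaled TPM divides by the sum over nuclear protein-coding genes. Expected counts were rounded to whole numbers and scaled by TMM in edgeR 4.0.16 (R 4.3.3), with factors of 0.985 and 1.02, a prior count of 2 and a mean of at least 10 CPM. The ratio step was tested on simulated data. DESeq2 1.42.0 size factors were an alternative, and the GC trend was fitted by lowess in statsmodels 0.14.6 with a span of 0.3. Promoters came from the RefSeq table. All 50 members were named, with 4 paralogues and the 5 highest and 5 lowest of the other list. The members, lists and comparisons were chosen with earlier results of these data known. With 1 group, no test or p-value was computed. Protein sequences were not used here.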

Additional observations from a re-analysis of the deposited data

How the results depend on the processing

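No role difference and no difference of a gene pair changed sign under the alternatives run, and nor did the members' median log2 ratio between libraries. Single ratios between libraries and some orders did: 7 members took the other sign with the GC trend removed (Orc1, Orc4, Pcna, Gins2, Mcm10, Mcm2 and Pold1) and 5 on rescaled TPM (Orc1, Orc4, Pole, Rfc1 and Rpa1). Without transcripts classed as noncoding, the widest complex in the mean of the libraries was GINS at 3.13, beside origin recognition at 3.05. In replicate 1 origin recognition remained the wider of them. The median of log2(TPM + 1) over the members, 4.39, became 5.78 on FPKM and 6.59 on rescaled TPM, and that of the other replication genes, 3.78, became 5.15 and 5.96. With means in place of medians, MCM minus origin recognition became 2.01, MCM minus Cdc45 and GINS 1.79, polymerase alpha-primase minus delta and epsilon 0.68, and nucleotide supply minus other members 0.90. Without transcripts classed as noncoding, an alternative chosen after seeing the data, these differences were 2.00 for origin recognition, 1.37 for Cdc45 and GINS and 0.99 for the polymerases. RPA minus the clamp loader was 0.39, and the other replication genes had a median of 3.53. This alternative kept transcripts of changed length or without a match, so Pold1-203 remained in the polymerase value and Tyms-205 in that of Tyms. The count of members at or above the level was 23 at 20 TPM. The count past 1.5-fold between libraries was 3 on rescaled TPM (Cdc7 higher, Chaf1b and Pold2 lower in replicate 2), 0 with the GC trend removed and 0 at 2-fold. The median coding share, 95.4%, was 97.8% on expected counts, 94.2% on posterior mean TPM, and 94.2% over transcripts of unchanged length, also chosen after seeing the data. Either library alone gave 42 or 40 members at 10 TPM or more, and of means over 2 libraries each value lies within 1 SD by construction. No paired analysis was possible because there was 1 group. With 2 libraries, differences between them cannot be tested. Orc1 had 611 and 574 counts.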
